A study of Mus musculus with 2 samples.

Results

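The 10 genes described here are the MHC class I genes H2-K1, H2-D1, H2-Q4, H2-Q6, H2-Q7, H2-T22, H2-T23 and H2-M3, the light chain gene B2m and the regulator Nlrc5. They were taken by symbol from the 27998 genes of the count tables, and all 10 were present. The cells were tumor mononuclear phagocytes (TMPs), sorted as MerTk+ CD64+ cells from B16 melanoma tumors grown in the skin of C57Bl/6 mice. 1 library came from Fcmr+/+ mice and 1 from Fcmr-/- littermates, which lack Fcmr, the putative receptor for soluble IgM, in all their own cells. The implanted B16 cells, a C57Bl/6 melanoma line, were the same in both. The number of mice behind each library is not given in the sources used here. With 1 library a genotype, no test between genotypes was possible. Every interval below is an exact Poisson or Clopper-Pearson interval at 95% that covers counting error only.

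MHC class I molecules carry peptides from inside the cell to its surface, where CD8+ T cells read them. Each is a heavy chain paired with beta-2 microglobulin, the product of B2m. H2-K1 and H2-D1 encode the classical heavy chains of this strain, which are highly polymorphic and made by nearly all nucleated cells. The non-classical chains vary less between strains and have narrower tasks: H2-Q6 and H2-Q7 encode Qa-2 antigens, H2-T23 encodes Qa-1, a ligand of CD94/NKG2 receptors on NK cells and T cells, H2-T22 encodes a ligand of some gamma delta T cells, and H2-M3 presents N-formylated peptides. Nlrc5 is an NLR protein that acts with the RFX complex, CREB family factors and NF-Y at class I promoters, through the S, X and Y motifs. Interferons also raise class I transcription, through IRF1 and other IRF proteins at the interferon-stimulated response element (ISRE).

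All 8 heavy chain genes lie on chromosome 17 of GRCm38, from H2-K1 at 33996017-34000347 on the minus strand and H2-D1 at 35262730-35267499 on the plus strand, through H2-Q4, H2-Q6 and H2-Q7 (35439155-35443773), to H2-T23 (36029773-36032855), H2-T22 and H2-M3 (37270220-37274484). B2m lies on chromosome 2 at 122147686-122153083 and Nlrc5 on chromosome 8 at 94434356-94527272, both on the plus strand. RefSeq promoter sequences of GRCm38.p6, from 250 bases before the RefSeq start, were at hand for 9 of the 10 genes, all but Nlrc5. The stretches below show both classical genes and B2m, with the non-classical genes of the largest (H2-Q7, H2-T23) and the smallest (H2-M3) differences between the libraries. They read 5′ to 3′ on the strand of the gene. Capitals mark, on either strand, the ISRE core AAGTGAAA, a spaced IRF repeat (GAAA, any 2 bases, then GAAA again), the NF-kappa-B core GGATTCCC, the CREB-type core TGACG of the X motif, and the Y box core ATTGG. The H2-D1 and H2-T23 stretches lie inside the longer GENCODE gene models and were kept to 30 bases, and the others lie upstream of the gene.
H2-K1, chr17:34000349-34000466, minus strand: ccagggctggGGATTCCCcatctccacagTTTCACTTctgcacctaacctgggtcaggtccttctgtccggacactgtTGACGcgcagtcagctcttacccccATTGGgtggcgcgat
H2-D1, chr17:35262925-35262954, plus strand: GGATTCCCcatctcctcagTTTCACTTctg
H2-Q7, chr17:35439014-35439153, plus strand: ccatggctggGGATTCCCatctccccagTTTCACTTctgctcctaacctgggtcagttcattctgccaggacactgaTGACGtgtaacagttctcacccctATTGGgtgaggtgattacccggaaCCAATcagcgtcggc
H2-T23, chr17:36032796-36032825, minus strand: TTTCTCTTTCataaagacacaaatgatgca
H2-M3, chr17:37270095-37270219, plus strand: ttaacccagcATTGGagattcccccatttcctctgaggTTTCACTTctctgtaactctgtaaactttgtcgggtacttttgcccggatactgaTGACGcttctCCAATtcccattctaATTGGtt
B2m, chr2:122147538-122147648, plus strand: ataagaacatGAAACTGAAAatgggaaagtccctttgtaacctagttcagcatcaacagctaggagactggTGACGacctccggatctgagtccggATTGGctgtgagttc

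The ISRE core was found in 7 of the 9 promoters and in 1.60% of all 32851 promoters. H2-T23 and B2m, the 2 without it, held the spaced IRF repeat, which was found in 3.44% of all promoters and which in H2-T22 overlaps the ISRE core. The NF-kappa-B core was present in H2-K1, H2-D1, H2-Q6 and H2-Q7, against 1.02% of all promoters. In H2-K1, H2-D1 and H2-Q6 it began 19 bases before the ISRE core, and in H2-Q7 18 bases before it. TGACG was found in 7 of the 9, all but H2-Q6 and H2-T23, against 20.8% of all promoters. ATTGG was present in all 9, but also in 37.4% of all promoters. These matches describe letters in a window and say nothing of which factor was bound.

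After the study's filters, 6352 Fcmr+/+ and 7999 Fcmr-/- cells remained, with 128408544 and 124630621 UMIs, counts of distinct RNA molecules. The median cell had 17973.5 UMIs in the Fcmr+/+ library and 12911 in the Fcmr-/- library, so shares of cells and correlations were computed after every cell was thinned to 5000 UMIs, which no kept cell fell below. The libraries shared 73 cell barcodes. Levels are given as CPM, UMIs per 1000000 UMIs of the cells summed, and ratios as log2 of Fcmr-/- over Fcmr+/+ after 1 CPM was added. Fcmr itself had 7 UMIs in the Fcmr+/+ cells and 6 in the Fcmr-/- cells, too few to check the genotype. The sort gene Mertk stood at 62.8 CPM in Fcmr+/+ and 48.7 CPM in Fcmr-/- TMPs, and Fcgr1, which encodes CD64, at 250.4 and 394 CPM.

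All 10 genes were higher in the Fcmr-/- library, and for all 10 the interval of the log2 ratio lay above 0, as it did for 35.6% of all genes tested. At this depth such intervals are narrow, so size was used: 7 of the 10 were at least 1.5-fold higher, against 2.40% of the 8701 genes that reached 5 CPM in 1 library or both, and none was 1.5-fold lower, against 1.69%. Their median log2 ratio was 0.70, beside 0.00 over all genes tested.

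Of the classical pair, H2-K1 stood at 977 CPM in Fcmr+/+ and 1581 CPM in Fcmr-/- TMPs, a log2 ratio of 0.69 (0.68 to 0.70). H2-D1, at 1513 and 1840 CPM, had a log2 ratio of only 0.28 (0.27 to 0.29). The balance of the pair therefore differed between the libraries: H2-D1 gave 60.8% (60.6 to 60.9) of classical UMIs in Fcmr+/+ cells and 53.8% (53.6 to 53.9) in Fcmr-/- cells. B2m stood at 2502 and 3402 CPM, a log2 ratio of 0.44, between those of H2-K1 and H2-D1. There were 0.903 B2m UMIs for each heavy chain UMI in Fcmr+/+ and 0.855 in Fcmr-/- TMPs.

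The largest ratios were those of 2 non-classical genes. H2-Q7 had 50.5 CPM in Fcmr+/+ and 135 CPM in Fcmr-/- TMPs, a log2 ratio of 1.40 (1.36 to 1.44). H2-T23 had 97.7 and 224 CPM, a ratio of 1.19 (1.16 to 1.22). Among the 8701 genes tested these ratios ranked 38 and 48 from the top.

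The other Qa and T region genes had smaller ratios. H2-Q6 was at 9.73 and 18.1 CPM, a log2 ratio of 0.83 (0.74 to 0.93). H2-Q4, which encodes Qb-1, was at 18.2 and 30.4 CPM, a ratio of 0.71 (0.64 to 0.78). H2-T22 was at 52.9 and 84.2 CPM, a ratio of 0.66 (0.62 to 0.70). H2-M3 was the exception among the non-classical genes, at 52.9 and 66.1 CPM, with a ratio of 0.32 (0.27 to 0.36), under the 1.5-fold limit like H2-D1 and B2m. Nlrc5, with 1234 UMIs in the Fcmr+/+ and 2406 in the Fcmr-/- library, stood at 9.61 and 19.3 CPM, a log2 ratio of 0.94 (0.84 to 1.03).

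Summed, the 2 classical genes went from 2491 to 3421 CPM, a log2 ratio of 0.46, and the 6 non-classical genes from 282 to 558 CPM, a ratio of 0.98. The non-classical share of heavy chain UMIs was thus 10.17% (10.07 to 10.27) in Fcmr+/+ and 14.01% (13.92 to 14.11) in Fcmr-/- TMPs, a difference of 3.85 percentage points. Levels of different genes are not compared further, since UMIs of a 3′ library depend on the end of each transcript. Cell Ranger does not count reads that match several genes. In a search of 90-base windows in the last 500 bases of each transcript, no window of H2-K1, H2-D1, H2-Q7, H2-M3, B2m or Nlrc5 occurred in another gene. For H2-T22, 26.5% of windows also occurred in H2-T10, and for H2-T23, H2-Q6 and H2-Q4 13.4%, 10.9% and 9.49% occurred elsewhere, so the levels of these 4 are less certain.

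**Figure D1:**
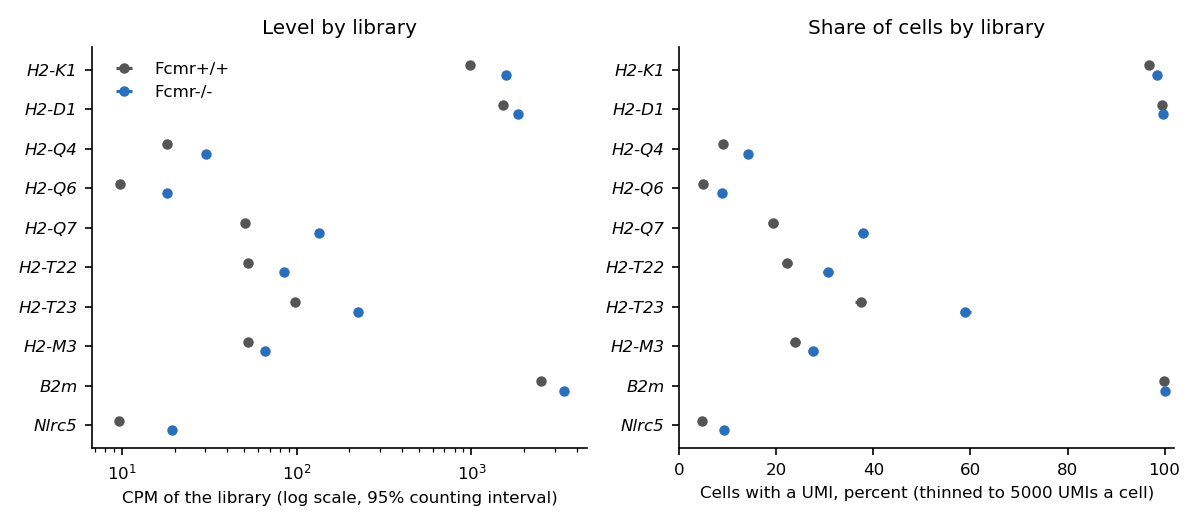
Left, the level of each gene in the Fcmr+/+ (grey) and the Fcmr-/- (blue) library in CPM on a log scale. Right, the percent of cells with at least 1 UMI after thinning to 5000 UMIs a cell, with points and bars giving the value and its 95% counting interval; H2-Q7 and H2-T23 are set farthest apart, and H2-D1 and B2m were found in nearly all cells of both libraries.

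The difference was also seen in single cells. After thinning, the share of cells with a UMI was higher in the Fcmr-/- library with intervals apart for 8 of the 10 genes, against 17.2% of all genes tested. For H2-T23 it was 37.3% (36.2 to 38.5) of Fcmr+/+ and 58.9% (57.84 to 60.01) of Fcmr-/- cells. For H2-Q7 it was 19.3% (18.3 to 20.2) and 37.9% (36.8 to 39.0), and for Nlrc5 4.77% (4.26 to 5.32) and 9.11% (8.49 to 9.77). H2-D1 and B2m, found in at least 99.4% of cells of either library, were the 2 whose intervals were not apart. Without thinning the shares were higher, for example 73.7% and 82.6% for H2-T23 and 16.3% and 22.6% for Nlrc5. For H2-M3 the unthinned shares ran against its CPM, 59.1% and 55.5%, with the deeper library higher, while the thinned ones were 23.9% and 27.6%. Free RNA can also place a UMI in a cell, and no cell type of this sort lacks class I, so that part of each share could not be measured.

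The abundant genes had higher medians in the Fcmr-/- library. The median thinned cell held 4 H2-K1 UMIs in the Fcmr+/+ and 7 in the Fcmr-/- library, and the 90th percentile was 10 and 16. More than 10 H2-K1 UMIs were found in 8.75% of Fcmr+/+ and 27.4% of Fcmr-/- cells. For H2-D1 the medians were 7 and 9 and the 10th percentile was 3 in both libraries, and for B2m the medians were 12 and 16. The median cell held no H2-T23 UMI in the Fcmr+/+ library and 1 in the Fcmr-/- library.

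Markers of other cell types and of phagocyte states also differed between the libraries. All 6 T and NK cell markers were higher in the Fcmr-/- library, and their summed level was 0.864 CPM in Fcmr+/+, where Ncr1 was at 0, and 14.5 CPM in Fcmr-/- TMPs. All 6 melanoma markers (40.6 and 64.1 CPM in sum) and all 8 dendritic cell markers (21.2 and 30.6 CPM) were higher too, as were 6 of 7 monocyte markers (392 and 585 CPM) and 4 of 5 neutrophil markers (31.2 and 47.6 CPM). Of 6 markers of resident-type macrophages 1 was higher, and their sum was 1410 and 940 CPM. The part of the monocyte and resident-type markers in the results was not tested. Without the cells that held a T or NK cell UMI, 6337 Fcmr+/+ and 7894 Fcmr-/- cells were left. The same count of 7 of the 10 genes was then at least 1.5-fold higher, against 2.41% of all genes tested. Without any cell with 2 or more UMIs of another cell type, 3203 and 3865 cells were left. Then 6 of the 10 genes were at least 1.5-fold higher, against 2.17% of all genes tested. The log2 ratio was 0.60 for H2-K1, 1.30 for H2-Q7 and 0.46 for H2-T22, which fell under that limit.

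To compare like cells, the kept TMPs were clustered without the 10 genes and without the peptide loading, MHC class II and other class I genes. Also left out were class I-like genes outside the MHC and regulators of class I and class II, among them Irf1 and Ciita. This gave 10 clusters. Cluster 1, led by Iigp1, Serpina3g, Cxcl9, Gbp4 and Ly6a, was type II interferon-responding-like, and 95.9% of its 2390 cells came from the Fcmr-/- library. With only 97 Fcmr+/+ cells it was left out of comparisons within clusters, which needed 100 cells of each library. Cluster 9, led by Rsad2, Cmpk2, Ifit3, Ifit2 and Ifit1, was type I interferon-responding-like, and cluster 5, led by Cenpf, Nusap1, Prc1, Pbk and Ccna2, was dividing-like. Cluster 6, led by Hbb-bs, Adm, Rhov, Hspb1 and Hspa1a, was hypoxic macrophage-like, with the markers Adm, Slc2a1 and Egln3 among its leading genes. The rest were named by their leading genes alone: Ccl17, Il1r2, Ifitm1, Ear2 and Ltc4s in cluster 2, Tfrc, Cnrip1, Gas6, Cela1 and Npl in cluster 3, and Cxcl3, Ppbp, Areg, Ccl24 and Il1a in cluster 4. Acp5, Cyp4f18, Apoe, Cirbp and Ypel3 led cluster 7, Plpp3, Mfge8, Npy, Ctsk and Mmp12 cluster 8, and Adm, Pdgfa, Cdk18, Rassf8 and Bhlhe41 cluster 10.

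Class I levels varied among these states in both libraries. Among clusters 2 to 10, H2-K1 in Fcmr+/+ TMPs was highest in cluster 9 at 1648 CPM, followed by clusters 7 (1282 CPM) and 2 (1245 CPM). Clusters 3, 6, 8 and 4 followed between 871 and 856 CPM, with overlapping intervals, and clusters 5 and 10, at 802 and 794 CPM, were lowest and also overlapped. H2-D1 was most even, from 1277 CPM in cluster 6 to 1944 CPM in cluster 9, a 1.52-fold range. The non-classical genes spread more widely: over the same Fcmr+/+ clusters H2-Q7 ranged 11.2-fold, from 19.9 to 223 CPM, and H2-Q6 38.5-fold, from 1.86 to 71.6 CPM. H2-M3 again went with H2-D1, with a range of 1.86-fold.

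Among clusters 2 to 10, cluster 9 had the highest level of all 10 genes in the Fcmr-/- library and of 9 in the Fcmr+/+ library, where H2-M3 was highest in cluster 7. Nlrc5 in cluster 9 stood at 24.4 CPM in Fcmr+/+ and 38.5 CPM in Fcmr-/- cells, while in clusters 2 to 8 and 10 it stood between 5.03 and 21.1 CPM. The 2293 Fcmr-/- cells of cluster 1 came next to cluster 9 for H2-K1 (2038 CPM), H2-D1 (2197 CPM), H2-T23 (312 CPM) and Nlrc5 (25.6 CPM), but not for H2-Q7 (164 CPM), which was higher in cluster 6 (214 CPM). The 97 Fcmr+/+ cells of cluster 1 held 1345 CPM of H2-K1, 1837 CPM of H2-D1 and 17.9 CPM of Nlrc5. Cluster 9 was itself defined by interferon genes. When these were also left out of the clustering, 10 of 11 clusters could be compared, and over them H2-K1 in Fcmr+/+ cells still ranged from 803 to 2002 CPM and H2-Q7 from 19.5 to 272 CPM. In the main clustering the non-classical share of heavy chain UMIs ran from 8.06% in cluster 3 to 18.4% in cluster 9 of Fcmr+/+ cells, and from 9.20% to 19.8% in the same clusters of Fcmr-/- cells. It was higher in the Fcmr-/- cells in all 9 of these clusters. In the clustering without interferon genes it was higher in 9 of 10, and the other way round, at 19.5% in Fcmr+/+ and 18.2% in Fcmr-/- cells, in the cluster with the highest class I levels.

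**Figure D2:**
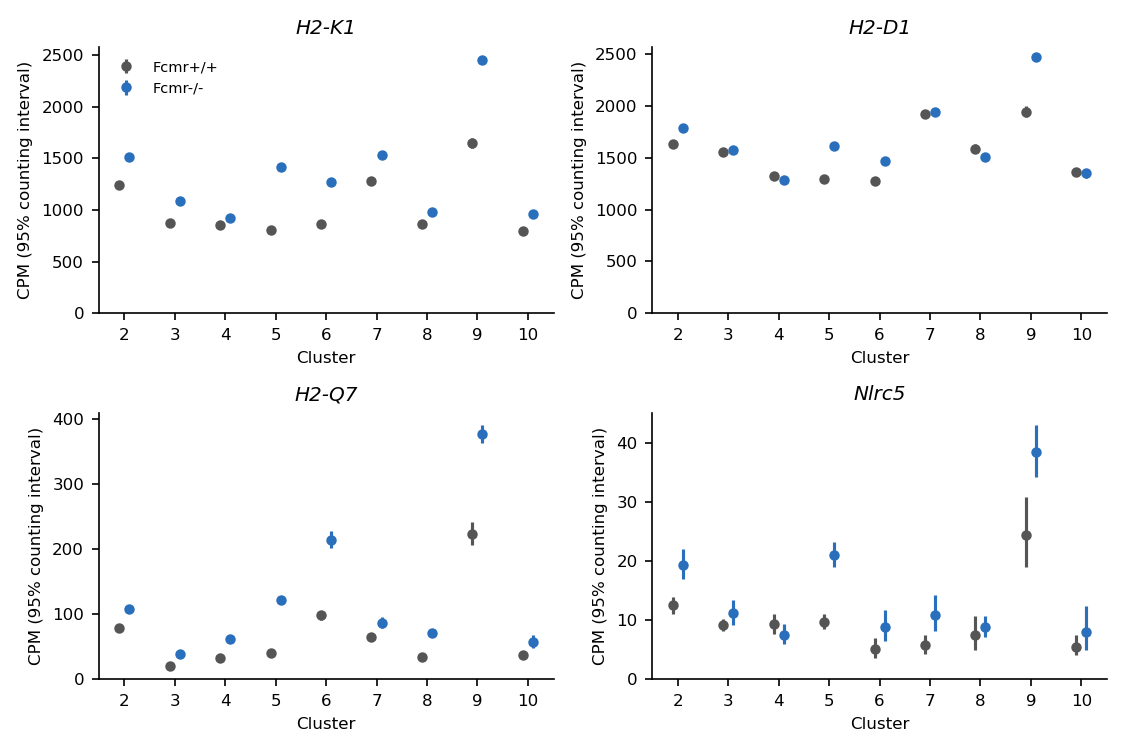
Levels of H2-K1, H2-D1, H2-Q7 and Nlrc5 in CPM by cluster, in Fcmr+/+ (grey) and Fcmr-/- (blue) cells, with 95% counting intervals. Cluster 9 is highest in each panel, and the libraries lie close together for H2-D1 in clusters 3, 4, 7, 8 and 10.

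Of the 90 pairs of a gene and a cluster, 26 were at least 1.5-fold higher in Fcmr-/- cells. That is 28.9%, against 4.28% of all genes tested in the same clusters. In 12 of the 90 the log2 ratio was below 0. The 90 take in H2-Q6 in cluster 3, under 5 CPM in both libraries (1.86 and 2.61 CPM). H2-Q6 in clusters 4 (4.30 and 8.28 CPM) and 8 (4.52 and 13.1 CPM), both past 1.5-fold, reached 5 CPM in Fcmr-/- cells alone. By cluster, 7 of the 10 genes were past 1.5-fold in cluster 5, against 2.92% of all genes there, and 6 in cluster 6, against 5.87%. There were 3 in cluster 8 (6.31% of all genes) and in cluster 9 (7.43%), 2 in cluster 4 (2.28%) and in cluster 7 (5.76%), and 1 in cluster 2 (1.85%), in cluster 3 (0.838%) and in cluster 10 (5.35%). Intervals lay above 0 in 58 pairs and below 0 in 2, against 19.1% and 14.9% of all pairs of a gene and a cluster tested. The Fcmr-/- cells of cluster 1, 28.7% of their library, added to the whole-library values: without that cluster 5 of the 10 genes were at least 1.5-fold higher, against 2.10% of all genes, and H2-K1 had a log2 ratio of 0.47. With clusters 2 to 10 given equal weight, only H2-Q7 (0.85) and H2-T23 (0.76) remained past 1.5-fold, against 1.28% of all genes, and H2-K1 stood at 0.40.

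By interval, the genes fell into those higher in every cluster and those higher in some. This split also follows counts, since abundant genes have narrow intervals, and the share of all genes with such intervals in all 9 clusters is not given. H2-K1, H2-Q7, H2-T23 and B2m had intervals above 0 in all 9 clusters. Their lowest log2 ratios were 0.11 for H2-K1 in cluster 4, 0.42 for H2-Q7 in cluster 7, 0.41 for H2-T23 in cluster 8 and 0.07 for B2m in cluster 7. The median of all genes tested in cluster 7 was 0.04. B2m was past 1.5-fold in 0 clusters, H2-K1 in 1, H2-T23 in 4 and H2-Q7 in 7. The lowest ratio of Nlrc5 was -0.27 (-0.64 to 0.10) in cluster 4, at 9.27 CPM in Fcmr+/+ and 7.54 CPM in Fcmr-/- cells. In cluster 10 Nlrc5 stood at 0.47 (-0.25 to 1.17), on 20 Fcmr-/- UMIs. Nlrc5 had its interval above 0 in 5 clusters, H2-Q4 and H2-Q6 in 4 each, H2-T22 in 3 and H2-M3 in 2. None of these 5 genes had an interval below 0 in any of the 9 clusters. This did not hold in the clustering without interferon genes. There, in the cluster with the highest class I levels (170 Fcmr+/+ and 1185 Fcmr-/- cells), H2-Q6 had a log2 ratio of -0.70 (-0.95 to -0.45) and H2-T22 of -0.58 (-0.72 to -0.44), and in another (290 and 726 cells) H2-M3 had one of -0.26 (-0.47 to -0.05). In cluster 9 of the main clustering H2-Q6 stood at 71.6 CPM in Fcmr+/+ and 65.0 CPM in Fcmr-/- cells, a log2 ratio of -0.14 (-0.37 to 0.10), and H2-T22 at 192 and 195 CPM, a ratio of 0.03 (-0.12 to 0.17).

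Under the main clustering H2-D1 was the only member with intervals on both sides of 0, while without interferon genes H2-Q6, H2-T22 and H2-M3 had them too. H2-D1 was higher in Fcmr-/- cells of clusters 2, 5, 6 and 9, with log2 ratios of 0.14, 0.32, 0.20 and 0.35, and lower in those of clusters 4 (-0.04) and 8 (-0.07). The 2 lower ratios were small, beside medians of all genes tested of -0.02 in cluster 4 and 0.08 in cluster 8. Their intervals left out 0 at high counts of H2-D1, and 14.9% of all pairs of a gene and a cluster had intervals below 0. In cluster 8 H2-D1 stood at 1587 CPM in Fcmr+/+ and 1511 CPM in Fcmr-/- cells, while H2-K1 stood at 860 and 985 CPM in the same cells. In the clustering without interferon genes, intervals of H2-D1 lay above 0 in 5 clusters and below 0 in 1. In that 1, of 290 Fcmr+/+ and 726 Fcmr-/- cells, it stood at 1890 and 1601 CPM, a log2 ratio of -0.24 (-0.27 to -0.20).

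Ratios within clusters leave out cluster 1, which held 97 Fcmr+/+ and 2293 Fcmr-/- cells. Whether setting these cells apart changed the ratios of the other clusters was not tested. Among clusters 2 to 10, the dividing-like cluster 5 had the largest ratios for 7 of the 10 genes. There H2-Q7 stood at 39.6 and 122 CPM (log2 ratio 1.60), H2-T23 at 64.1 and 178 CPM (1.46), Nlrc5 at 9.70 and 21.1 CPM (1.05) and H2-K1 at 802 and 1421 CPM (0.82). T and NK cell markers were also farthest apart in that cluster, at 0.0447 and 59.6 CPM. They stood on few cells, 1 of 746 Fcmr+/+ and 17 of 752 Fcmr-/- cells, and without those cells the ratios in cluster 5 were 1.54, 1.46, 1.04 and 0.82. Cluster 6, with the next largest ratio of H2-Q7 (1.12), held 77.9 CPM of melanoma markers in Fcmr+/+ and 274 CPM in Fcmr-/- cells, and cluster 2 held 54.0 and 108 CPM of dendritic cell markers. The part of these markers in the results of clusters 6 and 2 was not tested.

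**Figure D3:**
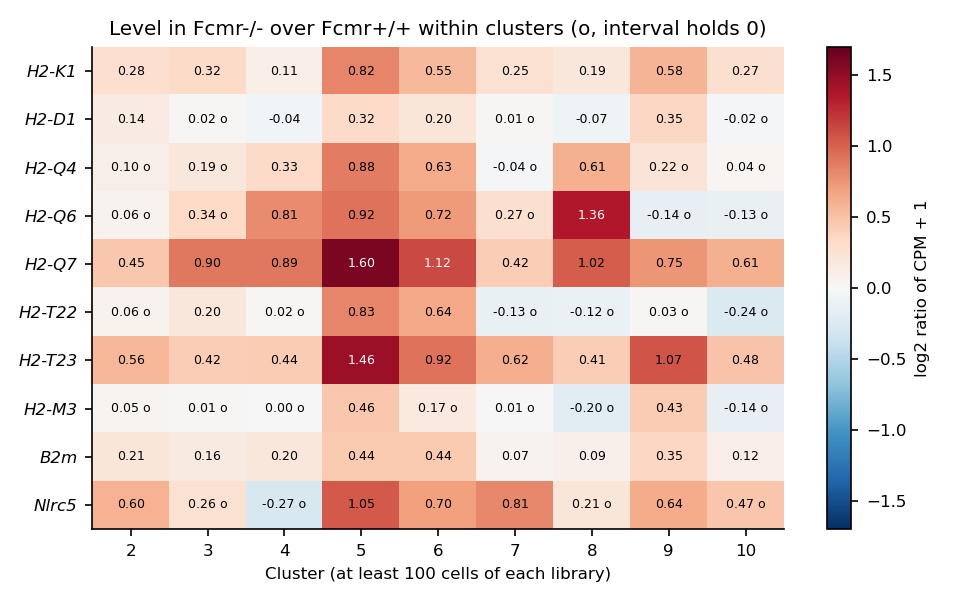
Log2 ratio of CPM in Fcmr-/- over Fcmr+/+ cells for each gene (rows) in each cluster with at least 100 cells of each library (columns), in red where higher in Fcmr-/- and in blue where lower. An o marks ratios whose 95% counting interval holds 0; the rows of H2-K1, H2-Q7, H2-T23 and B2m have none, and H2-D1 is lower in clusters 4 and 8.

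The genes around the class I pathway were described by lists. The median log2 ratio of 13 peptide loading and immunoproteasome genes was 0.76, beside 0.00 over all genes tested. In the Fcmr-/- library 9 of the 13 were at least 1.5-fold higher, against 2.40% of all genes tested. These were the peptide transporter genes Tap1 (53.6 and 103 CPM, log2 ratio 0.92) and Tap2 (0.69), the loading genes Tapbp (0.76) and Tapbpl (1.08), and the proteasome genes Psmb8, Psmb9, Psmb10, Psme1 and Psme2 (0.71 to 1.08). The general chaperones of the endoplasmic reticulum were under that limit, with Calr at 0.30, Pdia3 at 0.22 and Canx at 0.08, as was the peptide trimming gene Erap1 at 0.46. Without cluster 1, 3 of the 13 were past it, against 2.10% of all genes. Without cells with UMIs of other cell types 7 were, against 2.17% of all genes.

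Among regulators of class I and class II, Ciita, the class II counterpart of Nlrc5, was at least 1.5-fold higher, at 2.35 and 5.35 CPM, a log2 ratio of 0.92. Its level reached the floor of 5 CPM, and only just, in the Fcmr-/- library alone. Irf1 stood at 0.27 and Irf2 at 0.52. The partners of Nlrc5 at class I promoters were not past 1.5-fold: Rfxank stood at 0.34, Rfxap at -0.28, Creb1 at -0.13 and the NF-Y genes Nfya, Nfyb and Nfyc at 0.11, 0.07 and 0.10, while Rfx5 was under 5 CPM. The NF-kappa-B genes Rela (-0.35) and Nfkb1 (-0.32) were lower.

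Among 7 MHC class II genes tested, only H2-DMa (0.66) was past 1.5-fold, but 5 others, H2-Aa, H2-Ab1, H2-Eb1, Cd74 and H2-DMb1, lay between 0.52 and 0.55. Of 25 type I and 17 type II interferon response genes, 14 and 15 were at least 1.5-fold higher, with medians of 0.67 and 1.39. Of all genes tested 2.40% were, with a median of 0.00. Some of these interferon genes reached 5 CPM in the Fcmr-/- library alone, where they were high. They were Ifi44 and Ifit3b of type I, and Iigp1, Gbp4, Gbp5, Gbp8, Irgm2 and Ciita of type II. Ciita is thus counted both here and among the regulators. Of 4 class I-like genes outside the MHC tested, none was 1.5-fold higher. Procr stood at 0.18 (0.08 to 0.28) and Mr1 at 0.00, and Fcgrt, which encodes the neonatal Fc receptor, and Hfe, an iron regulator, both of which pair with B2m, stood at -0.33 and -0.36. Of 26 further class I heavy chain genes listed, 16 were in the count tables and none reached 5 CPM. H2-T24 came nearest, at 1.57 and 3.60 CPM.

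Over the 19 groups of cells formed by cluster and library with at least 100 cells, the genes with the most similar pattern differed between members. These correlations are descriptions, since many groups came from the same library. Of 2564 genes at or over 50 CPM in each library, the classical pair was most like Fcgr4 (Pearson's r of log2 CPM 0.94), Tapbp (0.92), Tmbim4 (0.90), Samhd1 (0.88) and Tmbim6 (0.87). The non-classical sum was most like Irf7 (0.94), Tap1 (0.91), Ms4a4c (0.88), Oasl2 and Ifi204 (0.87 each). B2m was most like Npc2 (0.95), Irf7 (0.90), Rasa4 (0.84), Slamf7 (0.82) and Ifi204 (0.81), and Nlrc5 was most like Rnf213 (0.95), Bst2 (0.94), Cybb (0.93), Trim30a (0.92) and Psmb9 (0.92).

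Among the members, H2-K1 went most closely with H2-T23 (0.96) and H2-D1 (0.91), and H2-Q6 with H2-Q7 (0.95). The lowest values were those of H2-Q6 with H2-M3 (0.44) and H2-D1 (0.50). H2-M3 was closest to H2-D1 (0.89). Nlrc5 over these groups had an r of 0.86 with H2-T23, 0.85 with H2-K1, 0.60 with B2m and 0.54 with H2-Q6. These values take in the groups of both libraries. In the same order they were 0.71, 0.65, 0.38 and 0.47 over the Fcmr+/+ groups alone. Over the Fcmr-/- groups alone they were 0.92, 0.91, 0.64 and 0.55.

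From cell to cell, counts of the abundant class I genes went together. In thinned cells H2-K1 and B2m had an r of 0.44 in the Fcmr+/+ and 0.58 in the Fcmr-/- library, and H2-K1 and H2-D1 0.43 and 0.57. In both libraries B2m, H2-D1 and H2-Q7 were, in this order, the 3 genes most correlated with H2-K1 among 2570 genes with at least 50 CPM. H2-Q6 and H2-Q7, far less abundant, still had 0.36 and 0.38. Of the 45 pairs of members, 14 in Fcmr+/+ and 22 in Fcmr-/- cells had an r of at least 0.2, against 0.254% and 0.285% of pairs of genes with at least 50 CPM. With each cell set against the mean of its cluster and library, 7 and 11 pairs did. The shares of all gene pairs above are not centred, and no share is given for centred values. Cells of 1 library share its handling and free RNA, and low counts hold r down. The pairs of all genes were not matched to the members in level. H2-K1, H2-D1 and B2m stood far over the floor of 50 CPM, and H2-Q4, H2-Q6 and Nlrc5 under it.

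**Figure D4:**
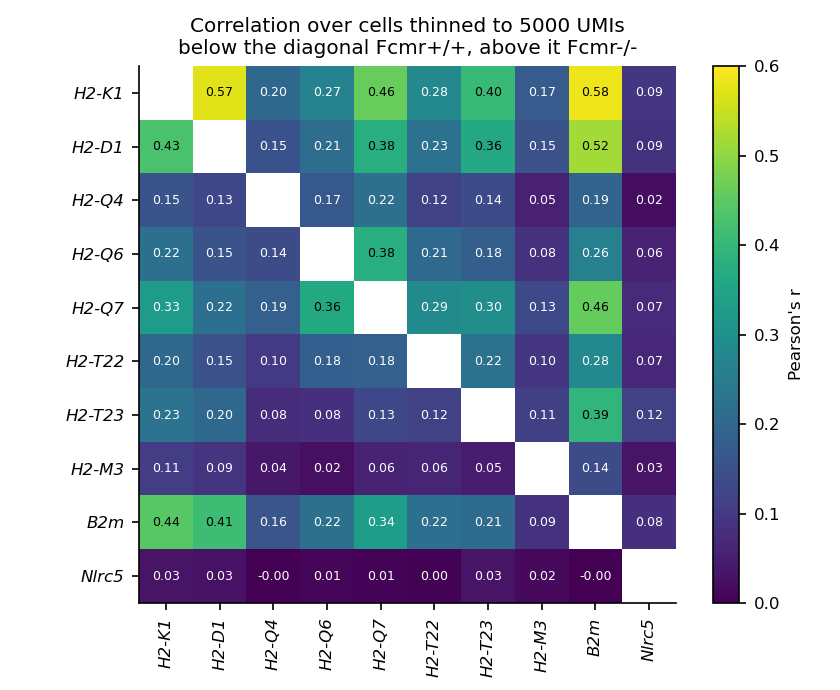
Pearson's r between members over cells thinned to 5000 UMIs, with Fcmr+/+ cells below the diagonal and Fcmr-/- cells above it. H2-K1, H2-D1, H2-Q7 and B2m form the brightest block on both sides of the diagonal, and the row and column of Nlrc5 stay at or under 0.12.

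From cell to cell, Nlrc5 had low values of r with every gene. Its r with each other member was at most 0.03 in Fcmr+/+ cells (H2-K1 and H2-T23) and 0.12 in Fcmr-/- cells (H2-T23). Among 2571 genes with at least 50 CPM, the highest r was that of Pnp, at 0.07 in Fcmr+/+ and 0.13 in Fcmr-/- cells. The members among these genes ranked from 71 (H2-K1) to 1400 (B2m) in Fcmr+/+ cells. In Fcmr-/- cells they ranked from 3 (H2-T23) to 155 (H2-M3), with H2-K1 at 22 and B2m at 33. Counts of Nlrc5 were sparse, at a mean of 0.0499 and 0.099 UMIs a thinned cell, which holds r down, so cells were also compared as groups. In Fcmr+/+ TMPs the 303 cells with an Nlrc5 UMI held 3182 CPM of heavy chain RNA and the 6049 without one 2952 CPM, a log2 ratio of 0.11 (0.07 to 0.15). In Fcmr-/- TMPs the 729 cells with one held 5046 CPM and the 7270 without 4055 CPM, a ratio of 0.32 (0.29 to 0.34). Within clusters the mean ratio was 0.04 over 5 clusters of Fcmr+/+ cells, with a range from -0.26 to 0.21. Over 9 clusters of Fcmr-/- cells it was 0.20, with a range from 0.05 to 0.44.

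In Fcmr-/- cells the ratio was larger for non-classical genes (0.55) than for classical genes (0.27). In Fcmr+/+ cells these were 0.12 (-0.01 to 0.25) and 0.11. Within clusters the mean non-classical ratio was -0.08 in Fcmr+/+ and 0.38 in Fcmr-/- cells, and the classical one 0.05 and 0.17. MHC class II RNA was also higher in cells with an Nlrc5 UMI, by log2 ratios of 0.08 and 0.40. Within clusters its mean ratios were 0.18 (range -0.30 to 0.67) and 0.47 (range 0.05 to 1.27), larger than those of the heavy chains. Cells with an Irf1 UMI had heavy chain ratios of 0.06 in Fcmr+/+ and 0.30 in Fcmr-/- TMPs. Their means within clusters were 0.03 over 8 clusters of Fcmr+/+ and 0.15 over 10 clusters of Fcmr-/- cells. Cells with a UMI of Ciita, the class II transactivator, held far more class II RNA, with ratios of 2.63 over 79 Fcmr+/+ cells and 1.73 over 171 Fcmr-/- cells, and a heavy chain ratio of 0.46 and 0.30. Within clusters the class II ratios were 1.41 (1 cluster) and 0.99 (mean of 2 clusters), and the heavy chain ratios 0.30 and 0.09.

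Read the other way, cells were split at 10, 15 and 23 heavy chain UMIs, which cut the cells of both libraries together into 4 classes of roughly similar size. From the lowest to the highest class, the share of cells with an Nlrc5 UMI was 3.46%, 4.88%, 5.32% and 6.02% in Fcmr+/+ cells. In Fcmr-/- cells it was 4.30%, 6.46%, 9.02% and 12.9%. In the lowest class the intervals of the libraries overlapped (2.65 to 4.42 and 3.25 to 5.56), and in the highest they were apart (4.57 to 7.77 and 11.6 to 14.1). The highest class held 14.4% of Fcmr+/+ and 35.6% of Fcmr-/- cells. These classes took in cells of all clusters, and cluster 1 held 1.53% of Fcmr+/+ and 28.7% of Fcmr-/- cells. The part of cluster 1 in these shares was not tested. How many of all genes had intervals apart in these classes is not given.

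**Figure D5:**
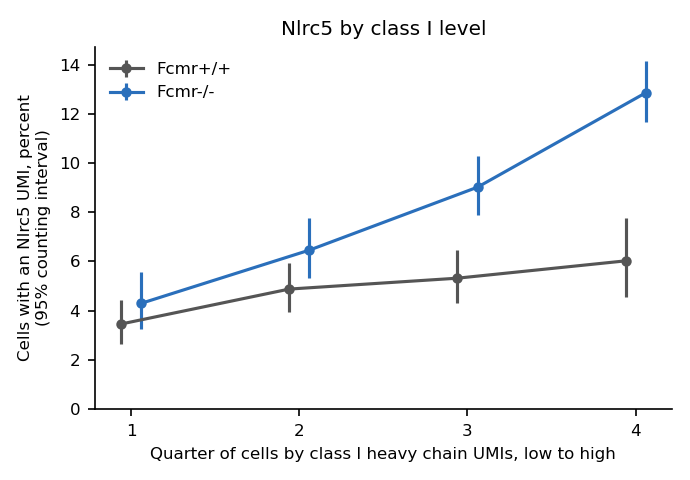
Percent of thinned cells with an Nlrc5 UMI in 4 classes of cells by heavy chain UMIs, from low to high, in Fcmr+/+ (grey) and Fcmr-/- (blue) cells, with 95% counting intervals. The libraries overlap in the lowest class and lie apart in the highest, at 6.02% and 12.9%.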

How the data were processed

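The authors made libraries of sorted TMPs with the Chromium 3′ kit and mapped reads to GRCm38 with Cell Ranger. The deposited matrices hold raw UMI counts per gene and cell, with no filter or normalization of the authors applied to them. As in the study, a cell had to hold 200 to 7000 genes and no more than 30% mitochondrial UMIs. The study's limit that a gene be found in 3 cells was used for the clustering only, and levels took in all 27998 genes. The upper gene limit was the only step against doublets. Levels are summed UMIs as CPM, and genes with at least 5 CPM in either library were tested for size at 1.5-fold. Clusters came from Seurat 5.3.0 in R 4.3.3, and other steps from Python 3.11.15, numpy 2.4.6 and scipy 1.17.1. The submitters' notes name Seurat 2.1.0. Scripts were tested on simulated counts. Gene positions are from GENCODE M21 and promoters from RefSeq. The members and lists were chosen with earlier results of these data known, and the text names members, list genes, the 5 genes leading each cluster and the 5 genes with the most similar pattern. Alternatives changed cell filters, scaling (edgeR 4.0.16 TMM, median of ratios, mean over cells), pseudocount, thinning depth and clustering. A gene of the regulator list is not reported here.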

Additional observations from a re-analysis of the deposited data

Results flagged for a closer look

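H2-D1 differed in direction between 2 clusters under the same contrast. Its log2 ratio of Fcmr-/- over Fcmr+/+ was -0.071 in cluster 8, led by Plpp3, Mfge8 and Npy, and 0.35 in cluster 9, led by Rsad2, Cmpk2 and Ifit3. The difference in cluster 8 was small, with 1587 CPM in Fcmr+/+ and 1511 CPM in Fcmr-/- cells. With 1 library of each genotype the difference between the clusters was not tested.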

How the results depend on the processing

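No paired analysis was possible because each genotype has 1 library, and for the same reason no library could be left out. All 10 members stayed higher in the Fcmr-/- library under every setting run for the whole library. Their log2 ratios ranged, for example, from 0.40 to 0.70 for H2-K1, from 0.11 to 0.29 for H2-D1, from 0.85 to 1.41 for H2-Q7 and from 0.55 to 1.00 for Nlrc5, and equal cluster weight, a setting chosen after the data were seen like the removal of cluster 1 and of T or NK cells, gave the lowest value of each. With equal weight, 2 members, 2 loading, 1 regulator, 0 class II, 2 type I and 8 type II interferon genes were at least 1.5-fold higher. Of all genes tested, 1.28% were. Without cluster 1 the loading, regulator and class II counts were 3, 1 and 0, and the non-classical share differed by 3.64 percentage points. Without cells with UMIs of other types those of regulators and class II were 1 and 0, and the share differed by 3.60 points. Thinning gave 1 regulator and 0 class II genes, the mean over cells 0 class II genes, a floor of 20 CPM 1 regulator, and no floor 1 other class I gene. Ciita, at 2.35 and 5.35 CPM, lay under the floor of 20 CPM and is not in the count made with it. Correlated pairs in Fcmr+/+ cells numbered 6 at 3000 UMIs, 7 by Spearman and 7 centred on cluster means, and 11 centred in Fcmr-/- cells. For these settings no share of all gene pairs is given. Heavy chain ratios by Nlrc5 were 0.038 within Fcmr+/+ clusters, and 0.20 within clusters and 0.29 at 8000 UMIs in Fcmr-/- cells. In other clusterings 20.8% to 28.3% of gene and cluster pairs were at least 1.5-fold higher, against 2.53% to 4.53% of all genes there. Depth limits pairs of a gene and a cluster with under 100 UMIs in a library, mostly of Nlrc5, H2-Q6 and H2-Q4.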
